A study of Mus musculus with 24 samples.

Results

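Myc and 41 genes for making ribosomes were followed through 3 subsets of splenic regulatory T (Treg) cells from young and old mice by bulk RNA sequencing. The 42 genes are a list of gene names, written with earlier results of these data known, and were found by matching the Ensembl identifiers of the normalised table to gene symbols. All 42 were among the 17464 genes of the table, and all 42 were among the 16630 genes tested, for which 4 or more libraries had to reach a value of 10. The mice were wild-type C57BL/6JRccHsd animals of 2 months (young) or 26 months (old), with no transgene, deletion or treatment, and the study used both sexes. From each of 4 mice per age, cells were sorted as resting Treg cells (rTreg, CD44-), activated Treg cells (aTreg, CD44+) and KLRG1+ Treg cells (kTreg), and each sort gave 1 library, 24 in all. KLRG1 is a surface receptor of terminally differentiated lymphocytes and CD44 an activation marker. The subsets are defined by surface gates alone, so a group is the mixture that passed its gate. Replicates are separate mice. Libraries of an age that share a replicate number were taken as 1 mouse, which the sample labels do not state.

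Myc is a transcription factor that dimerises with Max and binds E-box sequences near the starts of many genes. It is known for driving growth in activated lymphocytes, and genes for ribosome production are among its best described targets. Ribosomes are made in the nucleolus, where RNA polymerase I copies the ribosomal DNA. Small nucleolar ribonucleoproteins then guide methylation (the box C/D class) and pseudouridylation (the H/ACA class) of the transcript, and assembly factors fold, cut and export the small and the large subunit. The products of the 42 genes cover each of these steps.

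The palindromic E-box CACGTG, which reads the same on both strands, lay in the 250 bases before the annotated start of the main transcript in 4 of the 42 genes (9.52%), against 6.84% of the 16542 genes tested that had such a window. The windows are shown because Nop56, which holds a CACGTG, is also the gene whose values ran most closely with those of Myc. Pearson r with Myc over the 24 libraries, on log2(value + 1), was 0.953 for Nop56. For Nop2, Rrn3 and Imp4 it was 0.808, 0.541 and 0.475. Npm1, Dkc1 and Gnl3, next in r among the 42 (0.896, 0.887 and 0.872), hold no CACGTG in this window. In the 1000 bases after the start, Nop56, Npm1, Dkc1 and Gnl3 hold 2, 2, 2 and 1. The sequences come from GRCm39 with starts from GENCODE M39, each of 30 bases on the + strand of the genome, on which all 4 genes lie. Capitals mark the CACGTG.
Rrn3, chr16:13598503-13598532: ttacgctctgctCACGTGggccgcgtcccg
Nop56, chr2:130115791-130115820: gccatgagcaacCACGTGgtgccgagcagc
Imp4, chr1:34478777-34478806: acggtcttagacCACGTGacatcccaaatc
Nop2, chr6:125108774-125108803: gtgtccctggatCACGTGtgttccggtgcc
The motif shown began 39 bases before the start of Rrn3, whose window holds a further one 206 bases before it, 32 before that of Nop56, 143 before that of Imp4 and 34 before that of Nop2. The related hexamer CACGCG, searched on both strands, was in 7 of the 42 windows (16.7%) and in 10.1% of all windows, and either hexamer was in 11 (26.2%) and 16.0%. In the 1000 bases after the start, CACGTG was in 25 of the 42 genes (59.5%), in 16.9% of all genes tested and in 38 of 87 other small and large subunit factors (43.7%). These matches describe letters only. The windows of the 42 genes had a median of 15 CpG against 10 over all genes, so the base composition differed as well.

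Libraries held 15045747 to 29521942 reads on the genes of the table. The labels held against their defining markers: Klrg1 was between 16559 and 41561 in the 8 kTreg libraries and at most 357.5 elsewhere, Cd44 was between 1628.1 and 2509.1 in young rTreg against 2931.7 to 4355.7 in young aTreg libraries and between 1733.1 and 3755.6 against 4895.7 to 6441 in old ones, and Foxp3, the defining factor of Treg cells, was between 5079.5 and 37793. Of the 24 libraries, 5 stood apart. The summed values of 5 B cell markers were 15202, 8260.3 and 6664 in the young rTreg, aTreg and kTreg libraries of mouse 2, against at most 2063.6 elsewhere. The sums of 5 macrophage markers were also highest in mouse 2 among the young libraries of each subset, at 8287.2, 2906.7 and 22253. Young kTreg library 4 had 4913 genes at 0, against 419 to 2756 in the others. Old aTreg library 2 had the lowest Foxp3, 5079.5. Foxp3 also differed between old subsets, at 5079.5 to 19813 in aTreg and 32111 to 37793 in kTreg libraries. In the other marker lists the sums ran from 232.9 to 1647.8 for NK cells, 77.8 to 2184.5 for CD8 T cells, 59.9 to 6215.7 for erythroid cells, 0 to 981.0 for platelets and 2.6 to 11266 for neutrophils. The old rTreg libraries also carried high sums of macrophage (10052 to 26220) and plasma cell markers (3168.3 to 9508.4). For the 42 genes together, each count of called genes is therefore given with and without the 5 libraries where it moved by more than 1.5 times. Counts by role and for other gene lists use all libraries. The old rTreg libraries are not among the 5, and without the 5 young kTreg cells rest on libraries 1 and 3. Exons of 35 of the 42 genes overlap exons of a gene on the opposite strand. Reads of such pairs cannot be told apart if strand was not used in counting. Myc, Nop56 and Polr1e are among the 35, and Npm1 and Nop10 are not.

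Myc (ENSMUSG00000022346, chr15:61857227-61862223, + strand, GRCm39) had its highest group mean in rTreg and its lowest in kTreg cells at both ages, in reads normalised by 1 size factor per library. In young rTreg cells the 4 libraries stood at 4607, 4519.7, 4469 and 4486, in young aTreg cells at 4036, 3441, 3065 and 3706, and in young kTreg cells at 1763, 2039.6, 1394 and 782. The 3 young groups did not overlap. In old mice Myc was 3050.1, 2615, 2632 and 3078 in rTreg cells, 2665, 2589.8, 1864 and 1849 in aTreg cells and 1855, 1438, 1072 and 1758 in kTreg cells. Here aTreg cells overlapped both rTreg and kTreg cells, while every old kTreg library lay below every old rTreg library. Group means were 4520.3 ± 61.3, 3562 ± 411 and 1495 ± 544 in young and 2844 ± 255, 2242 ± 446 and 1531 ± 354 in old rTreg, aTreg and kTreg cells (SD, n = 4 each). In a bulk sample, fewer cells that express a gene and less RNA per cell cannot be told apart.

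Called genes are those with a Benjamini-Hochberg adjusted p below 0.05 over all 16630 genes and a fold change above 1.5, in limma on log2(value + 1), a scale on which changes of low genes are understated. The share of all genes beside a count of calls is for limma with both bounds. No such share is given for counts by adjusted p alone, by unadjusted p, in DESeq2 or edgeR, or with libraries left out. These counts therefore have no background to be read against. After a log2 fold change, ± gives the SE, and after a mean the SD over 4 mice. Over both ages Myc was lower in kTreg than in aTreg cells, with a log2 fold change of −0.95 ± 0.15 (adjusted p = 0.00027), and it was lower in all 8 mice. Within young mice the change was −1.33 ± 0.22 (adjusted p = 0.00049) and was called. Within old mice it was −0.56 ± 0.22 (adjusted p = 0.19) and was not called. Against rTreg cells, kTreg cells were lower, with log2 fold changes of −1.68 ± 0.22 in young (adjusted p = 7.7e-06) and −0.92 ± 0.22 in old mice (adjusted p = 0.0086), both called. Without old mouse 3 the second value was −0.80 with an adjusted p of 0.068. Between aTreg and rTreg cells the log2 fold changes of Myc were −0.35 ± 0.22 in young and −0.36 ± 0.22 in old mice, and neither was called (adjusted p = 0.55 and 0.33).

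With age, Myc stood at a log2 fold change of −0.67 ± 0.22 in rTreg cells (adjusted p = 0.063) and −0.68 ± 0.22 in aTreg cells (adjusted p = 0.1), neither of them called, although each of the 4 old rTreg libraries and each of the 4 old aTreg libraries lay below all young libraries of its subset. Without the 5 libraries that stood apart, these values were −0.67 (adjusted p = 0.014) and −0.77 (adjusted p = 0.029), and both passed the thresholds. In kTreg cells the old and young means were close, with a log2 fold change of 0.09 ± 0.22 (95% interval −0.36 to 0.54, adjusted p = 0.86). The change of the kTreg to aTreg difference with age was 0.77 ± 0.31 (95% interval 0.13 to 1.41, adjusted p = 0.43), so the smaller Myc difference in old mice did not pass the test of the difference itself. In rTreg cells the sum of 5 macrophage markers moved with age, from 566.1 to 8287.2 in young to 10052 to 26220 in old libraries, as did the sum of 3 plasma cell markers, 115.4 to 1157.6 and 3168.3 to 9508.4, with no marker of either list at 0 in all 4 libraries of a group. Library medians of 30 proliferation genes moved as well in rTreg cells, from −0.89 to 0.67 in young to 1.01 to 1.24 in old libraries (log2 relative to each gene's mean). So did the sum of 3 platelet markers, 42.2 to 73.8 and 450.6 to 981.0. The part of all these in the rTreg values was not tested. In aTreg cells the macrophage sums overlapped, at 53.7 to 2906.7 in young and 221.2 to 332.1 in old libraries.

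**Figure D1:**
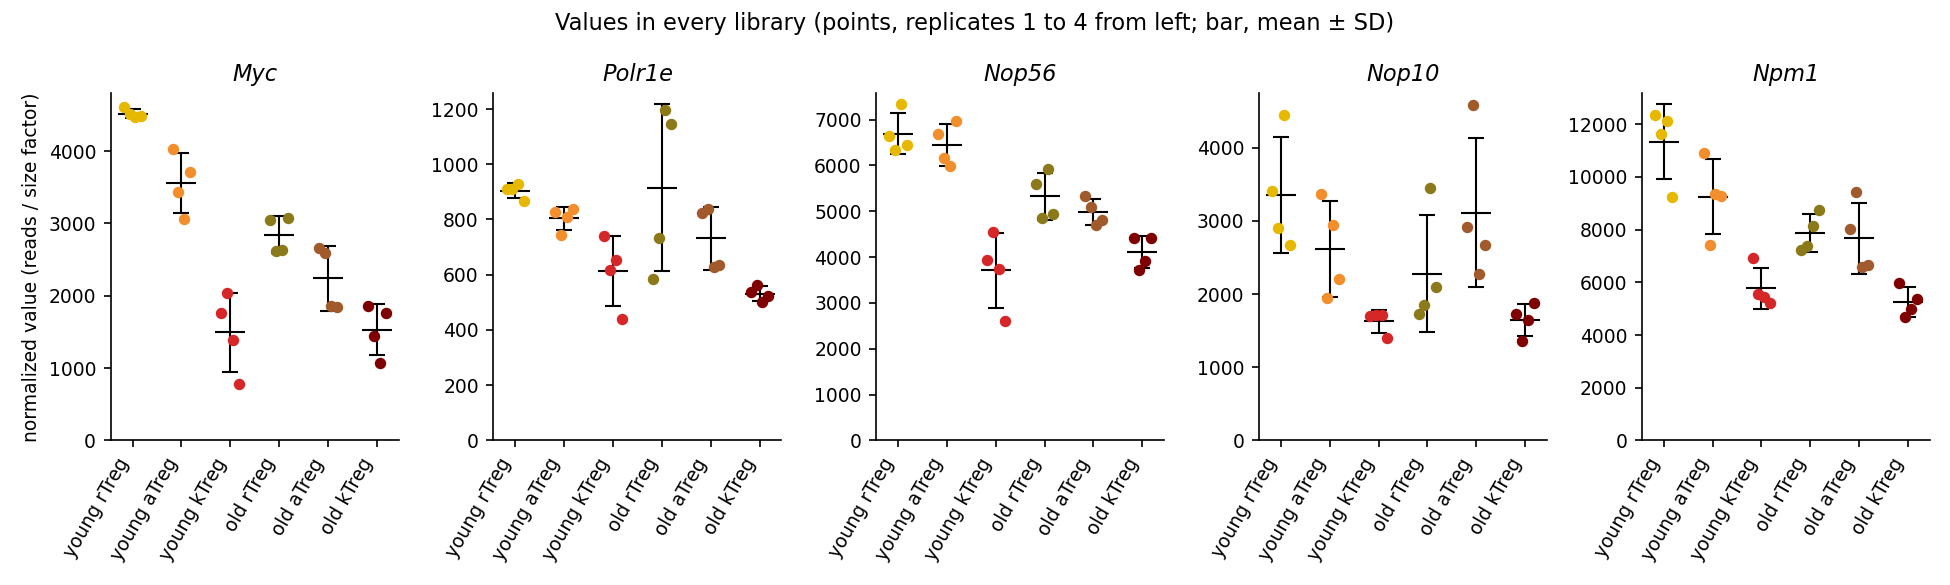
Normalised values (reads divided by 1 size factor per library) of Myc, Nop56, Npm1, Nop10 and Polr1e in each of 24 libraries, with points for libraries and bars for group means and SD over 4 mice. The young kTreg libraries lie below all young rTreg and aTreg libraries for each of the 5 genes, with Myc at 781.9 to 2039.6 against 3064.8 to 4606.6.

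The other genes shown library by library are those called with the smallest p values. Nop56 (ENSMUSG00000027405, chr2:130115808-130121238, + strand), a scaffold protein of the box C/D particle that methylates ribosomal RNA, was 6635, 6343, 7332 and 6439.9 in young rTreg, 6678, 6152, 5983 and 6969 in young aTreg and 3945, 4551, 3738 and 2597 in young kTreg cells. Young kTreg libraries lay below the rest, and rTreg and aTreg libraries overlapped. In old mice the values were 5594, 4844, 5922 and 4933 in rTreg cells, those of aTreg cells were 5325, 5083, 4705 and 4799, and those of kTreg cells 4408, 3711, 3914 and 4419. Old kTreg libraries again lay below all old rTreg and aTreg libraries, by a smaller margin. The log2 fold change of kTreg against aTreg cells was −0.82 ± 0.12 in young (adjusted p = 0.00022, called) and −0.28 ± 0.12 in old mice (adjusted p = 0.26, not called). Its change with age, 0.55 ± 0.18, had the smallest p among the 42 genes and an adjusted p of 0.32.

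Npm1 (ENSMUSG00000057113, chr11:33100281-33113267, - strand) encodes nucleophosmin, an abundant nucleolar chaperone. It stood at 12345, 11646, 12118 and 9238 in young rTreg, 10927, 7432, 9370.5 and 9273 in young aTreg and 6929, 5543, 5442 and 5216 in young kTreg cells. In old mice it was 7211, 7365, 8144 and 8741 in rTreg, 8044, 9437, 6584 and 6667 in aTreg and 5977, 4685, 4978 and 5369 in kTreg cells. At both ages the kTreg libraries lay below all others of their age. Over both ages Npm1 was lower in kTreg than in aTreg cells (log2 fold change −0.61 ± 0.10, adjusted p = 0.00019), and the call did not hold in 7 of 42 alternatives, in which the fold lay under 1.5 while the adjusted p stayed at or below 0.0025. It was also lower than in rTreg cells of young mice (−0.97 ± 0.13, adjusted p = 1.8e-05).

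Nop10 (ENSMUSG00000027133, chr2:112092271-112093764, + strand), a small protein of the H/ACA particle that makes pseudouridine, had the highest mean of the 42 per length of annotated exon. Its values were 3409, 2897, 4452 and 2669 in young rTreg, 3362, 1944, 2942 and 2208 in young aTreg and 1696, 1715, 1709.9 and 1395 in young kTreg cells. In old mice it was 1725, 1847, 3449.5 and 2100.5 in rTreg cells, 2923, 4579, 2269 and 2676 in aTreg cells and 1724, 1352, 1639 and 1875 in kTreg cells. Every kTreg library lay below every aTreg library of its age, while old kTreg and rTreg libraries overlapped. The change of kTreg against aTreg cells was −0.76 ± 0.16 over both ages (adjusted p = 0.0027). In old mice alone it was −0.88 ± 0.23 (adjusted p = 0.042), the single call among the 42 genes there, which did not hold in 18 of 42 alternatives, the replicate block among them (−0.88, adjusted p = 0.051), and was −0.58 without old mouse 2. Without the 5 libraries that stood apart, 0 genes were called in that comparison.

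Polr1e (ENSMUSG00000028318, chr4:45018583-45038513, + strand) encodes a subunit of RNA polymerase I. It was 911, 911, 929 and 866 in young rTreg, 828, 742, 809 and 837 in young aTreg and 741, 616, 653 and 439 in young kTreg cells. In old mice it stood at 585, 734, 1197 and 1144 in rTreg, 825, 837, 626 and 636 in aTreg and 538, 564, 499.8 and 521 in kTreg cells. The kTreg libraries lay below all other libraries of their age, by less than 1 at the nearest in young mice (741.4 against 742). Calls were made against rTreg cells, with −0.59 ± 0.19 in young (adjusted p = 0.035) and −0.72 ± 0.19 in old mice (adjusted p = 0.018). The young call held in 25 of 42 alternatives. Among others, it was lost on leaving out each young rTreg library in turn or young kTreg library 2 or 4, in DESeq2 and edgeR, with equal library totals, and with the mouse as a replicate block (−0.59, adjusted p = 0.061). Without the 5 libraries that stood apart it was −0.37 (adjusted p = 0.31). The old call held in 36 of 42 and was lost without old rTreg library 3 or 4 or old kTreg library 3. Against aTreg cells over both ages the value was −0.43 ± 0.14 (adjusted p = 0.039), with a fold under 1.5.

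Counted over the 42 genes and both ages, 10 were lower and 0 higher in kTreg cells, where 3.26% of all 16630 genes were called lower and 4.13% higher. The 10 were Npm1, Myc, Fbl, Dkc1, Nop10, Nhp2, Gnl3, Rrp1b, Gar1 and Tsr1. The median log2 fold change was −0.44 over the 42 genes and −0.08 over all genes, and 40 of the 42 values lay below 0. By adjusted p alone, with no bound on the fold, 26 of the 42 were lower, and the share of all genes at that threshold is not given. Without old aTreg library 2 there were 6 calls, and without old mouse 2 and without young mouse 4 likewise 6. DESeq2 and edgeR on the recovered reads each made 10 calls. In 23 of the 42 genes the kTreg library lay below the aTreg library of its mouse in all 8 mice, which held for 6.091% of all genes.

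In young mice 12 genes were lower and 0 higher in kTreg than in aTreg cells (background 3.49% lower and 3.46% higher), with a median of −0.55 against −0.12 over all genes and all 42 values below 0. In 26 of the 42 the 4 kTreg libraries lay below the 4 aTreg libraries, which held for 7.99% of all genes. Without the 5 libraries that stood apart 13 were called. In old mice 1 gene was lower and 0 higher (0.866% and 1.33% of all genes), with a median of −0.30 against 0.01. In 19 of the 42 the old kTreg libraries lay below the old aTreg libraries (9.78% of all genes), and 17 of the 42 had an unadjusted p below 0.05, all lower. DESeq2 called 3 genes there, Nhp2, Nop10 and Wdr12, and edgeR 1, and leaving out 1 library or mouse gave 0 to 3, among them 0 without old aTreg library 1 or 2 or old kTreg library 2, 3 or 4. The macrophage sums also moved with this comparison, at 221.2 to 332.1 in old aTreg and 1947.2 to 2977.9 in old kTreg libraries. Foxp3 moved as well, at 5079.5 to 19813 and 32111 to 37793. The part of either in the values was not tested. With age the difference between kTreg and aTreg cells changed past the thresholds for 0 of the 42 in limma, edgeR and DESeq2 (0.0421% of all genes higher and 0.114% lower in limma). The median of this change was 0.28 against 0.14 over all genes, and 10 of the 42 had an unadjusted p below 0.05, all higher in old mice.

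**Figure D2:**
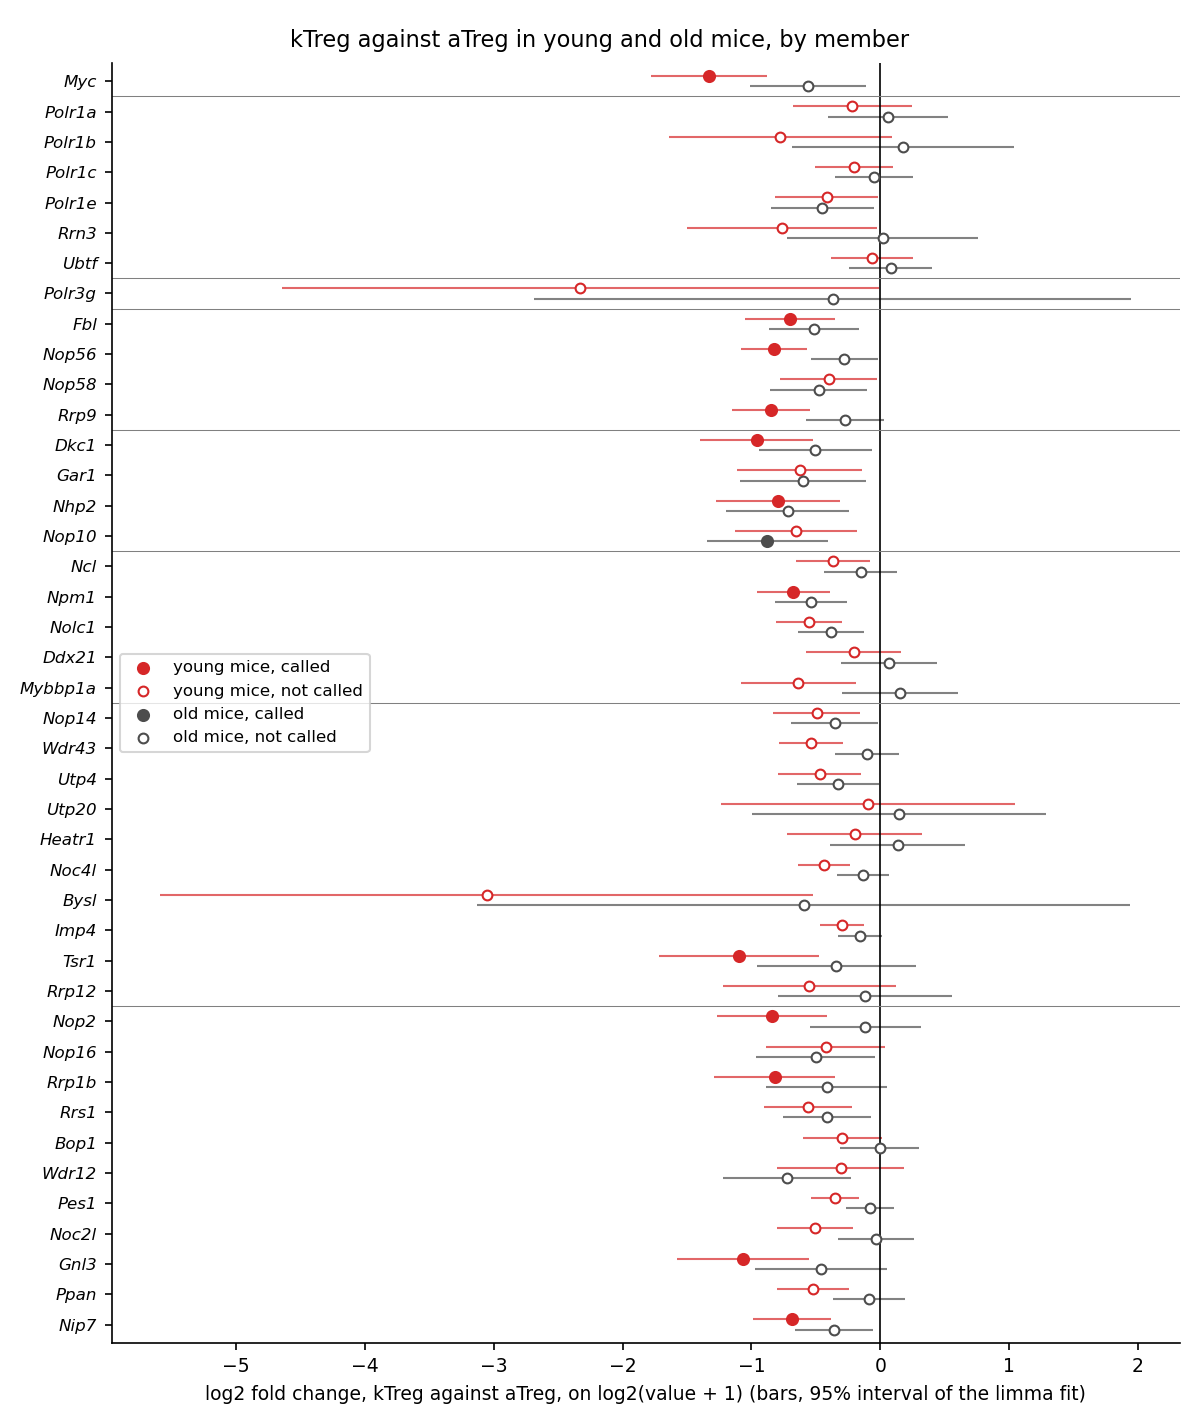
Log2 fold changes of kTreg against aTreg cells for each of the 42 genes in limma, young and old mice (4 libraries a group), with bars for the 95% interval of the fit and filled points for called genes, and a vertical line at 0. All 42 young values lie below 0 and 12 are called, while 34 of the 42 old values lie below 0 and 1 is called.

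Against rTreg cells, which share their kTreg libraries with the comparison above, 12 genes were lower in young kTreg cells and 0 higher (7.56% and 8.24% of all genes). They were Myc, Npm1, Nop56, Nip7, Rrp9, Fbl, Dkc1, Nop10, Gnl3, Nhp2, Nop14 and Polr1e. The median was −0.52 over the 42 and −0.14 over all genes. The all-gene value depended on the scaling, at −0.02 in edgeR and −0.01 in DESeq2, where the medians of the 42 were −0.49 and −0.48. In 19 of the 42 the groups did not overlap, which held for 11.6% of all genes. In old mice Myc, Polr1e, Nhp2 and Nop16 were lower and 0 higher (3.09% and 5.77%), with a median of −0.31 against 0.10. Macrophage sums moved with this comparison, at 10052 to 26220 in old rTreg and 1947.2 to 2977.9 in old kTreg libraries, as did the library medians of 30 proliferation genes, at 1.01 to 1.24 and −0.34 to 0.07 (log2 relative to each gene's mean), and their part was not tested. Without the 5 libraries that stood apart 7 were lower, likewise 7 without young kTreg library 4. There was 1 call without old rTreg library 3, without old kTreg library 3 or without old mouse 4, there were 2 without old rTreg library 4 or old kTreg library 2, and 0 without old mouse 3. The change of this difference with age was called for 0 of the 42 in limma, edgeR and DESeq2 (0.998% of all genes higher, 2.03% lower), with 5 higher at an unadjusted p below 0.05. Without young kTreg library 2, and without the 5 libraries that stood apart, 1 was higher.

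Between aTreg and rTreg cells, limma, edgeR and DESeq2 called 0 of the 42 genes at either age. In young mice 2.71% of all genes were higher and 0.637% lower in aTreg cells, the median of the 42 was 0.06, and 1 had an unadjusted p below 0.05. In old mice the background was 4.82% higher and 3.78% lower, the median −0.05 against 0.11, and 2 had an unadjusted p below 0.05, both lower. Proliferation medians moved with the old comparison, at −0.86 to −0.34 in aTreg and 1.01 to 1.24 in rTreg libraries. Macrophage sums did too, at 221.2 to 332.1 and 10052 to 26220, and plasma cell sums, at 208.7 to 650.7 and 3168.3 to 9508.4. Their part was not tested. Myc and Polr1e in young mice, and Wdr43, Heatr1, Noc4l, Nop2 and Bop1 in old mice, had all 4 aTreg libraries below all 4 rTreg libraries, as did 5.05% of all genes in young and 7.16% in old mice. The change of this difference with age was called for 0 of the 42 in limma, edgeR and DESeq2 (0.511% of all genes higher, 1.05% lower), with 3 lower and 1 higher at an unadjusted p below 0.05.

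Old and young cells of the same subset differed in 0 of the 42 genes in limma. In rTreg cells the median was −0.17 against −0.08 over all genes, 11 were lower at an unadjusted p below 0.05, and DESeq2 called Myc and edgeR 0 genes (1.71% of all genes lower, 4.12% higher in limma). In aTreg cells the median was −0.30 against 0.01, with 38 of the 42 values below 0 and 14 lower at an unadjusted p below 0.05 (0.86% of all genes lower, 1.85% higher). DESeq2 called Myc, Mybbp1a and Nop2 there, and edgeR 0. Without the 5 libraries that stood apart limma called 2 lower in rTreg and 3 lower in aTreg cells. Leaving out single libraries gave up to 2 lower in rTreg cells, the 2 without old rTreg library 1 or 3, and up to 3 in aTreg cells, the 3 without young kTreg library 4, which enters through the shared spread. In kTreg cells the median was 0.03 against 0.12, 2 genes were higher at an unadjusted p below 0.05, and edgeR and DESeq2 called 0 (0.235% of all genes lower, 1.02% higher).

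**Figure D3:**
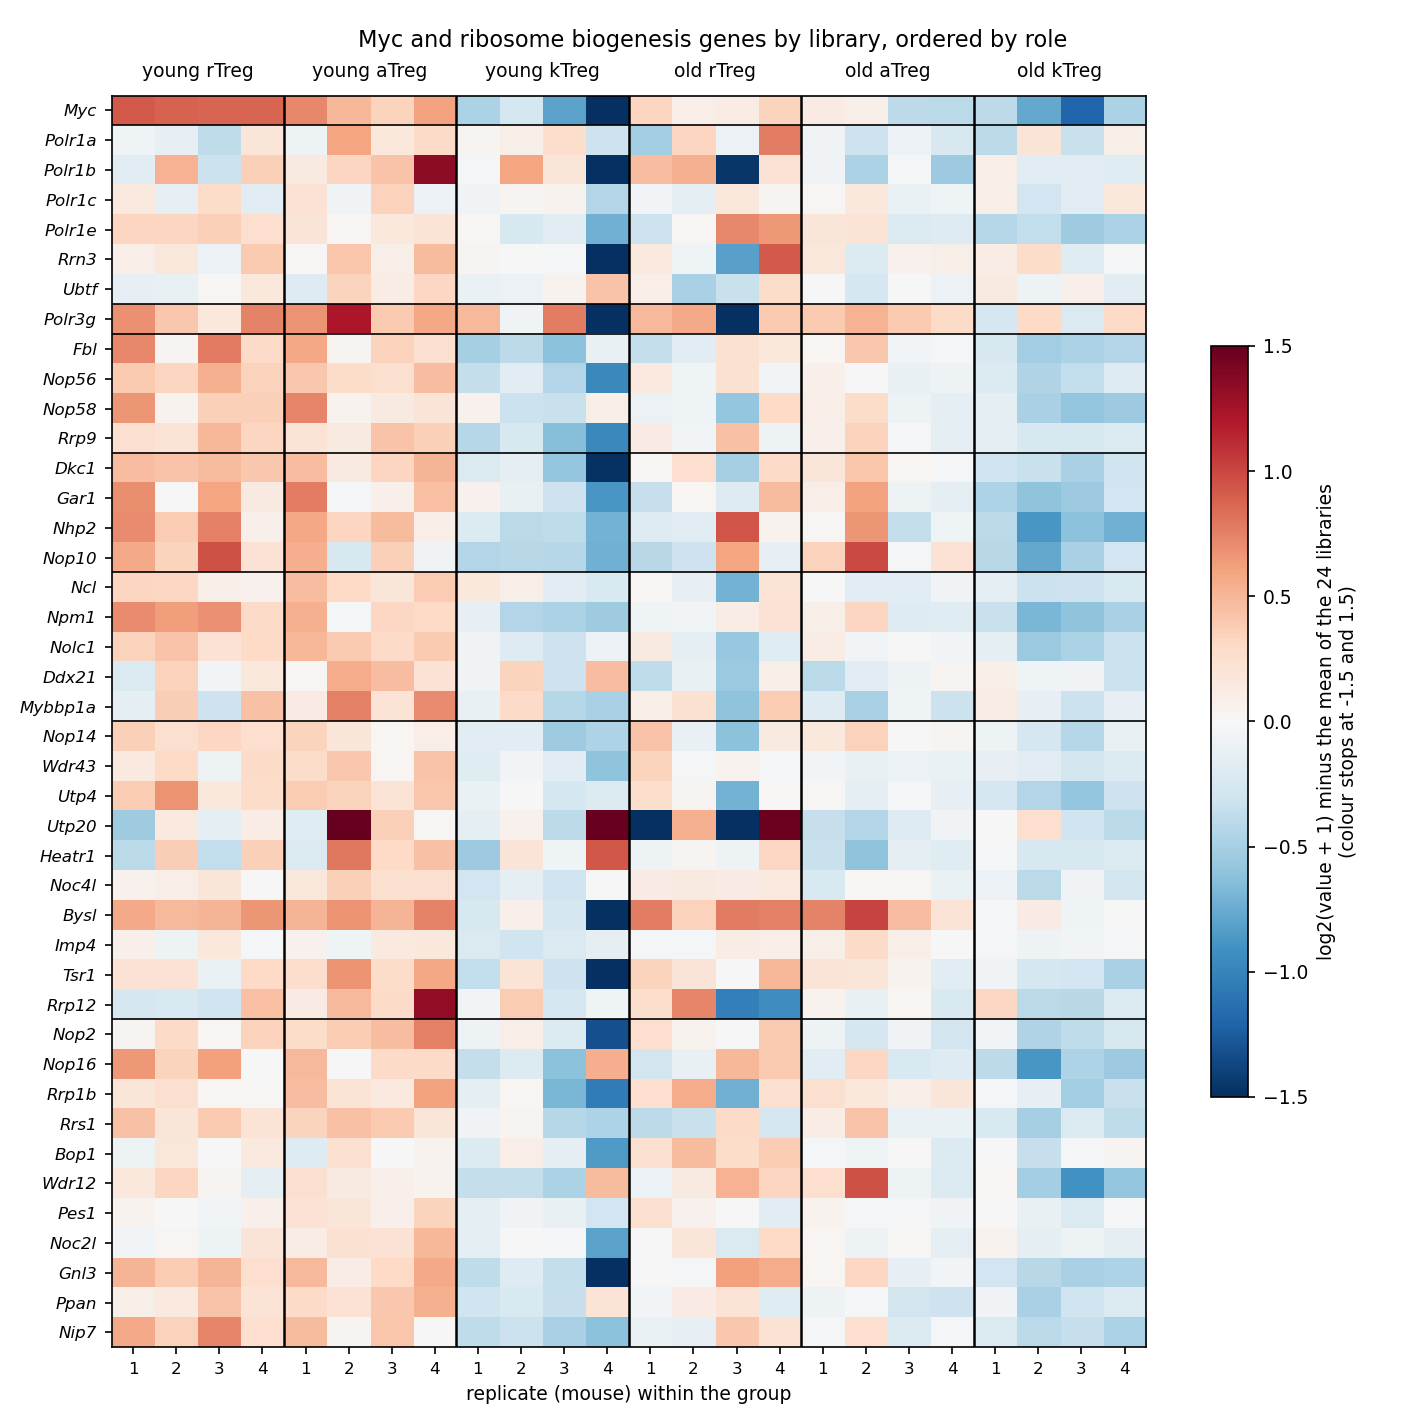
Log2 value of each of the 42 genes relative to its own mean over the 24 libraries, genes in rows by role and libraries in columns by group, blue below and red above the mean, with the scale cut at both ends. Library medians lie between −0.51 and −0.07 in young kTreg and −0.34 and −0.10 in old kTreg columns, against 0.28 to 0.37 in young aTreg and 0.17 to 0.29 in young rTreg columns.

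Within RNA polymerase I, 0 of 6 genes were called between kTreg and aTreg cells over both ages (median −0.21), and Polr1e alone against rTreg cells. Polr1a, the largest catalytic subunit, averaged 771 ± 151 in young aTreg and 661 ± 104 in young kTreg cells, with a both-age log2 fold change of −0.08 ± 0.16. Polr1b, the second catalytic subunit, was 1022 ± 436 and 648 ± 326 (−0.30 ± 0.29). Polr1c, a subunit shared with RNA polymerase III, was 1011 ± 148 and 878 ± 130.3 (−0.13 ± 0.10). Rrn3, which brings the polymerase to the ribosomal promoter and has the 2 E-boxes described above, was 1109 ± 175 and 752 ± 356 (−0.37 ± 0.25). Ubtf, the factor that keeps ribosomal DNA open, was 3997 ± 630.3 and 3825 ± 698 (0.01 ± 0.11), the value nearest 0 among the 42. Polr3g, a subunit of RNA polymerase III, was 282, 193, 343 and 0 in the young kTreg libraries and 338 ± 89.8 in young aTreg cells. Its young change of −2.33 ± 1.12 was not called (adjusted p = 0.22), with library 4 at 0.

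The 4 box C/D genes of the list were Fbl, Nop56, Nop58 and Rrp9, of which the last is specific to the U3 particle and not a core protein. Of these, 1 was called lower in kTreg than in aTreg cells over both ages and 3 in young mice (medians −0.56 and −0.76). Fbl, the methyltransferase of the particle, averaged 3465 ± 543 in young aTreg and 2126 ± 334 in young kTreg cells, a change of −0.70 ± 0.17 (adjusted p = 0.011). In old mice it was 3001 ± 468 and 2092 ± 187, −0.51 ± 0.17 and not called. The call over both ages held in 36 of 42 alternatives, and was lost without young aTreg library 1, young kTreg library 3 or old aTreg library 2. Rrp9, which binds the U3 RNA that directs early cleavage, was 1689.8 ± 159 and 952 ± 198 in young (−0.85 ± 0.15, adjusted p = 0.00073) and 1461 ± 214 and 1200.5 ± 39.3 in old mice (−0.27 ± 0.15). Nop58, the partner of Nop56, was 2665 ± 627 and 2001 ± 322 in young mice, −0.44 ± 0.13 over both ages, with a fold under 1.5 (adjusted p = 0.027).

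All 4 genes of the H/ACA core were called lower in kTreg than in aTreg cells over both ages, with a median of −0.74. Dkc1, the pseudouridine synthase, averaged 3387 ± 383 in young aTreg and 1841 ± 661 in young kTreg cells, and 2938 ± 421 and 2059 ± 126 in old mice (−0.73 ± 0.15 over both ages, adjusted p = 0.0022). Nhp2, an RNA-binding partner, was 1762 ± 249 and 1016 ± 144 in young and 1468 ± 471 and 866 ± 119 in old mice (−0.76 ± 0.16, adjusted p = 0.0034). Gar1, which lets the enzyme turn over its substrate, was 894 ± 232 and 581 ± 149.8, and 778 ± 199 and 504 ± 49.2 (−0.61 ± 0.17, adjusted p = 0.017). The calls of Nop10 and Nhp2 held in all 42 alternatives, that of Dkc1 in 41 and that of Gar1 in 36, lost without young aTreg library 1, young kTreg library 4 or old aTreg library 2. In young mice 2 of the 4 were called and in old mice 1. The young call of Nhp2 held in 30 of 42, and the young value of Dkc1 was −0.96 ± 0.21, and −0.61 without young mouse 4.

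Among the nucleolar scaffolds and chaperones, Npm1 was the single call of 5. Ncl, which encodes nucleolin and was the most abundant of the 42 in reads, averaged 14865 ± 1236 in young aTreg and 11577 ± 1490 in young kTreg cells (−0.26 ± 0.10 over both ages). Nolc1, a chaperone of the small nucleolar particles, was 2276 ± 139 and 1553 ± 123 (−0.47 ± 0.09, adjusted p = 0.00095, fold under 1.5). The helicase gene Ddx21 was 1980.2 ± 327 and 1736 ± 418 (−0.07 ± 0.13). Mybbp1a, a nucleolar protein that binds Myb, was 4249 ± 953 and 2749 ± 714 in young but 2549.8 ± 316 and 2838 ± 347 in old mice. Its change of −0.63 ± 0.22 in young mice was not called (adjusted p = 0.074).

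Of 10 small subunit factors 1 was called over both ages, with a median of −0.33. Tsr1, a late factor of the small subunit, averaged 1701 ± 249 in young aTreg and 917 ± 472 in young kTreg cells, and −0.72 ± 0.21 over both ages (adjusted p = 0.028). This call held in 29 of 42 alternatives. Without young kTreg library 4 the value was −0.47 and not called, and in young mice it moved from −1.09 ± 0.30 to −0.60. The call was also lost without young aTreg library 2 or 4, old aTreg library 1 or 2 or old kTreg library 4. Nop14 was 1329 ± 121 and 948 ± 123 (−0.42 ± 0.12) and was called against young rTreg cells (−0.62 ± 0.16, adjusted p = 0.0091), a call lost without young kTreg library 3 or 4. Its partner Noc4l was 2204 ± 117 and 1631 ± 159.6 (−0.28 ± 0.07). Utp4 and Wdr43, which join the early processome, stood at −0.40 ± 0.11 and −0.32 ± 0.08, with young kTreg means of 1396 ± 115 and 2574 ± 406. Imp4, which pairs U3 with its target, was 3981 ± 275 and 3239 ± 146 (−0.23 ± 0.06). The scaffold genes Heatr1 and Utp20 lay near 0 (−0.03 ± 0.18 and 0.03 ± 0.39), with young kTreg means of 1070.3 ± 478 and 487 ± 407. Rrp12, which takes part in export of pre-ribosomes, was 790.1 ± 330.2 and 517 ± 100.4 (−0.33 ± 0.23). Bysl was 561, 697, 549 and 0 in the young kTreg libraries, and its young change of −3.05 ± 1.22 was not called (adjusted p = 0.13), with library 4 at 0 as for Polr3g.

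Of 11 large subunit factors 2 were called over both ages and 4 in young mice, with medians of −0.48 and −0.52. Gnl3, or nucleostemin, averaged 2019 ± 283 in young aTreg and 1047 ± 418 in young kTreg cells, and was lower over both ages (−0.76 ± 0.17, adjusted p = 0.0057). In young mice its change was −1.06 ± 0.25, and −0.68 without young kTreg library 4, still called, while the call over both ages was lost without that library. Rrp1b was 1456 ± 219 and 854 ± 280 (−0.62 ± 0.16, adjusted p = 0.013), a call lost without young aTreg library 4 or without young kTreg library 3 or 4 or old kTreg library 3. Nop2, a methyltransferase with an E-box before its start, was 2578 ± 382 and 1521 ± 541 in young mice (−0.84 ± 0.21, adjusted p = 0.013) and 1656 ± 132 and 1535 ± 197 in old mice. Without young kTreg library 4 the young value of Nop2 was −0.53, with a fold under 1.5, and the call was also lost without young aTreg library 4. Nip7 was 1808 ± 306 and 1118 ± 98.7 (−0.68 ± 0.15, adjusted p = 0.0044). Nop16 was called in old kTreg against rTreg cells alone, at 788 ± 109 and 1300 ± 331 (−0.70 ± 0.22, adjusted p = 0.048), a call held in 17 of 42 alternatives and lost with the replicate block (−0.70, adjusted p = 0.083).

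The remaining large subunit factors were not called by limma between kTreg and aTreg cells, and DESeq2 called Wdr12 in old mice. Bop1, Pes1 and Wdr12 form 1 complex of the pre-large subunit. Their both-age values were −0.15 ± 0.10, −0.21 ± 0.06 and −0.51 ± 0.17, with young kTreg means of 2330.4 ± 589, 2428 ± 166 and 1016 ± 349.5. Young kTreg library 4 held 1538 for Wdr12 against 796.3 to 868.3 in the other 3, whereas for Myc library 4 was the lowest. Rrs1, which helps load the 5S particle, was 889.7 ± 67.9 and 609 ± 108 (−0.49 ± 0.12, adjusted p = 0.0075, fold under 1.5). Noc2l was 4996 ± 602 and 3581 ± 823 (−0.27 ± 0.10). Ppan was 2120.1 ± 210.1 and 1489 ± 283 (−0.31 ± 0.09, adjusted p = 0.037, fold under 1.5).

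Per kilobase of annotated exon, Nop10 had the highest mean of the 42 (1933), followed by Npm1 (1388), Ncl (1166), Nop56 (1024) and Myc (989), and Utp20 the lowest (34). The length is the union of the exons of all annotated transcripts of a gene, from 1262 bases for Nop10 to 12954 for Nop58. It can exceed the length of the transcripts present, so this order depends on the annotation and does not rank abundance. Across the 24 libraries the genes most like Myc, by Pearson r of log2(value + 1), were Nop56 (0.953), Mmp11 (0.944), Ccr7 (0.937), Foxp1 (0.920) and Cnn3 (0.917). Among the 42 the r ran from 0.953 for Nop56 through 0.896 for Npm1 and 0.887 for Dkc1 to −0.157 for Utp20. These are descriptions, since the libraries share mice and groups.

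Related lists were written with earlier results of these data known. Of 13 tested genes of the Myc network, 2 were higher and 0 lower in kTreg than in aTreg cells over both ages (median −0.01). They were Mxd1 (0.85 ± 0.16, adjusted p = 0.00092) and Mxd3 (0.95 ± 0.29, adjusted p = 0.035), which encode Max partners that oppose Myc. Mean Mxd1 was 2256, 1330 and 2501 in young and 2499, 1050 and 1934 in old rTreg, aTreg and kTreg cells. Mean Mxd3 was 256, 113 and 342 in young and 639, 138 and 167 in old cells, in the same order. In old mice Mxd3 was called lower in kTreg than in rTreg cells (−1.85 ± 0.41, adjusted p = 0.0061). Of 9 genes for Myc turnover, Cip2a, an inhibitor of the phosphatase PP2A, was higher (1.30 ± 0.23) and the kinase gene Pim2 lower (−1.10 ± 0.23), with a median of 0.11. Of 26 growth and metabolic targets 4 were lower and 0 higher (median −0.36), among them Srm, spermidine synthase, at −0.94 ± 0.12 (adjusted p = 1.6e-05), and Apex1 and Nme1 at −0.74 ± 0.15 and −0.61 ± 0.17. The remaining RNA polymerase I and III parts had 2 of 35 lower (Polr1g and Polr2h, both −0.67), with a median of −0.14. Other small subunit factors had 1 of 45 lower (Ltv1, −0.59) and other large subunit factors 3 of 42 (Rrp15, −0.87, Mdn1, −0.84, and Rpf2, −0.61), with medians of −0.29 and −0.27. In nucleotide synthesis 1 of 20 was lower (Dhodh, −0.68) and 1 higher (Rrm2, 0.99), with a median of −0.17. The same background of 3.26% lower and 4.13% higher applies to each. Against young rTreg cells, the 3 called growth and metabolic targets of smallest p in young kTreg cells went both ways. They were Srm (−1.20 ± 0.17, adjusted p = 1.8e-05), Odc1 (1.18 ± 0.19, adjusted p = 0.00012) and Eif4a1 (−0.66 ± 0.12, adjusted p = 0.00038).

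Proliferation genes went the other way. Of 30, 19 were higher and 0 lower in kTreg than in aTreg cells over both ages, with a median of 1.10, including the mitotic genes Kif11 (1.89), Bub1b (1.51) and Ccna2 (1.37). In old mice 0 of the 30 were called in limma (median 0.51), where 1.33% of all genes were called higher and 0.866% lower. Library medians of the 30 genes, relative to each gene's mean, were 0.24 to 1.46 in young kTreg and −0.87 to −0.66 in young aTreg cells, where those of Myc and the 41 ribosome genes together were −0.51 to −0.07 and 0.28 to 0.37. The old rTreg libraries were high in proliferation genes (1.01 to 1.24) and stood at −0.0046 to 0.23 in the 42 genes. A lower level of the 42 genes thus stood beside a higher level of the proliferation genes in young kTreg cells, and what part the share of dividing cells has in either was not tested.

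**Figure D4:**
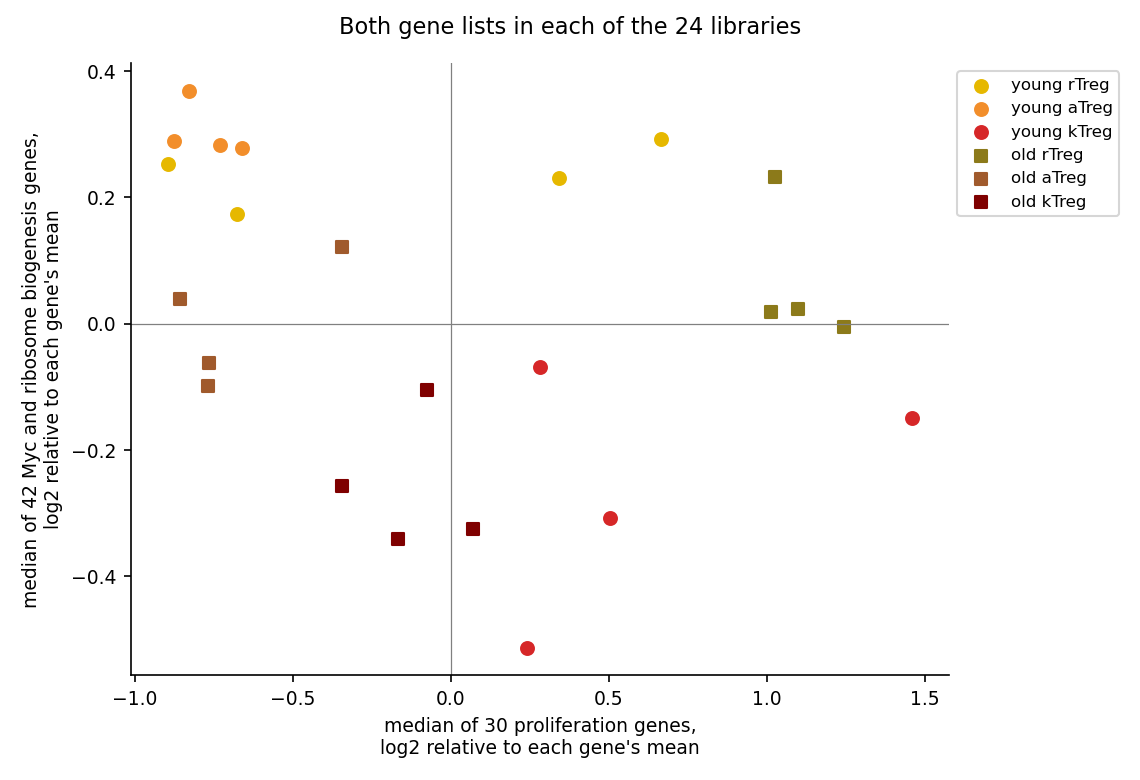
Median over the 42 genes (vertical) against the median over 30 proliferation genes (horizontal) in each of 24 libraries, both as log2 relative to each gene's mean, coloured by group. Young kTreg libraries lie at the lower right, young aTreg libraries at the upper left, and old rTreg libraries at the right with medians of −0.0046 to 0.23.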

How the data were processed

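RNA was sequenced from 24 libraries of splenic Treg cells in 6 groups of 4, with the grouping taken from the sample labels. A further sorting marker is not reported here. The authors made cDNA with the SMART-Seq v4 kit, aligned paired reads to GRCm39 with HISAT2 2.2.1, used SAMtools 1.13, counted reads per gene with HTSeq 1.99.2 and normalised with DESeq2 1.44.0. The values the authors deposited are a signal, gene reads scaled by a size factor that is constant within a library. The annotation release, the strand setting, the handling of reads with several positions and the design formula are not given in the sources used here. Every column was mapped to a sample, and 0 were left over. Values in 100% of cases were whole multiples of 1 read within 0.001 reads, and these reads were recovered. The lowest sum of reads of a listed gene over the libraries was 100. Depth was 15045747 to 29521942 reads on listed genes, and PCR copies carry no molecular identifier, so counting error alone understates the error and the spread between mice was used.

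GENCODE M39 named 17353 of 17464 identifiers, and 111 kept their identifier. The 42 genes and all other gene lists were chosen with earlier results of these data known. Tests used limma 3.58.1 (R 4.3.3, trended prior variance) on log2(value + 1), with 6 group means and 13 contrasts over the 16630 genes that reached a value of 10 in 4 or more libraries. A call needed an adjusted p (Benjamini-Hochberg, over these genes) below 0.05 together with a fold above 1.5. edgeR 4.0.16 and DESeq2 1.42.0 were run on the recovered reads. The fits were tested on simulated data. Values in every library were given for Myc and for the 2 called genes of smallest p per contrast and direction, every other gene of the 42 was named by role, and of each other list at most 3 called genes with the smallest p were named. Correlations with Myc used Python 3.11.15 with numpy 2.4.6, pandas 2.3.3 and scipy 1.17.1, and plots matplotlib 3.10.9.

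The series' design text names 4 mice per age as the source of the 3 subsets, and libraries of an age with the same number were taken as 1 mouse, which the sample labels do not state. Deviations from group means correlated within a mouse with medians of 0.153 (rTreg and aTreg), 0.0911 (rTreg and kTreg) and 0.115 (aTreg and kTreg), against −0.0331, −0.0340 and −0.0507 between mice, with a lowest same-number value of −0.0636, and the consensus correlation was 0.062. Such deviations cancel within a group, so the values between mice are tied to those within a mouse and are no independent baseline. The 43 alternatives were pseudocounts of 0.5 and 5, a filter at 50 and none, the mouse as a replicate block, only the groups compared, equal library totals, edgeR, DESeq2, adjusted p alone, and leaving out each of 24 libraries and 8 mice. Leaving out the 5 libraries that stood apart was chosen after seeing the data.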

Additional observations from a re-analysis of the deposited data

Results flagged for a closer look

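Of 36 sets of 4 libraries checked for 1 far value by Dixon's test at the 95% level, 3 were flagged, and chance flags about 1 in 20 such sets. Nop10 in young kTreg library 4 was 1395.3, below the other 3 at 1696 to 1714.5 (Dixon ratio 0.942), in the library that also had 4913 genes at 0. The median of the 42 genes, as log2 relative to each gene's mean, was highest in young aTreg library 4, at 0.369 against 0.278 to 0.290 in the other 3 (ratio 0.868). In old rTreg library 4 it was 0.232 against −0.0046 to 0.023 (ratio 0.883).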

How the results depend on the processing

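Between kTreg and aTreg cells over both ages, 10 of the 42 genes were called lower, 26 by adjusted p alone and 6 to 12 with 1 library or mouse left out. In young mice the 12 calls became 7 with only the groups compared, 20 by adjusted p alone and 8 to 15 in leave-outs. In old mice the 1 call became 0 with the replicate block, 3 with only the groups compared, 3 in DESeq2, 2 by adjusted p alone, 0 without the 5 libraries that stood apart and 0 to 3 in leave-outs. Against rTreg cells the 12 calls in young mice were 9 to 16 in leave-outs, and the 4 in old mice became 7 by adjusted p alone, 7 without the 5 libraries and 0 to 7 in leave-outs. Between aTreg and rTreg cells of old mice 0 to 1 were called higher in leave-outs. Between old and young rTreg cells the 0 calls became 1 with only the groups compared, 1 in DESeq2, 2 by adjusted p alone, 2 without the 5 libraries and 0 to 2 in leave-outs. In aTreg cells they became 3 with only the groups compared, 1 with equal library totals, 3 in DESeq2, 1 by adjusted p alone, 3 without the 5 libraries and 0 to 3 in leave-outs. For the change with age of kTreg against rTreg cells, 1 was higher without the 5 libraries and 0 to 1 in leave-outs. The alternative with the 5 libraries left out was chosen after seeing the data.

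Myc in old against young rTreg cells, −0.67 and not called, passed at −0.67 with only the groups compared (adjusted p = 0.012), at −0.67 in DESeq2 (adjusted p = 0.026) and at −0.67 without the 5 libraries (adjusted p = 0.014), and ran from −0.71 to −0.63 in leave-outs. In aTreg cells, at −0.68, it passed at −0.68 with only the groups compared (adjusted p = 0.032), at −0.67 in DESeq2 (adjusted p = 0.039) and at −0.77 without the 5 libraries (adjusted p = 0.029), and ran from −0.77 to −0.60. Against old rTreg cells, Myc in kTreg cells ran from −1.02 to −0.76. The calls of Myc between kTreg and aTreg cells over both ages and in young mice, and against young rTreg cells, held in all 42 alternatives with a fitted change. Over the 35 calls of the other genes, 1314 of 1470 values under alternatives kept the call, 156 lost it and 0 changed sign. Myc in old against young rTreg cells also passed at −0.67 without young kTreg library 2 or 4, and in aTreg cells at −0.68 without young kTreg library 4. These kTreg libraries enter both contrasts only through the shared spread. The cause of the shifts was otherwise not tested.

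With the mouse as a replicate block, the calls lower were 10 and 13 in kTreg against aTreg cells over both ages and in young mice, 0 in old mice, and 12 and 3 against young and old rTreg cells. The counts of higher calls among the 42 did not change under the block.

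The bound on the fold alone takes the 26 genes past the adjusted p between kTreg and aTreg cells to 10. Bysl and Polr3g, at 0 in young kTreg library 4, carry wide errors.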
